A study of Mus musculus with 4 samples.

Results

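The isoform genes that set glucose uptake and its conversion to lactate were described in cultured mouse neural progenitors. They were the 3 glucose transporter genes *Slc2a1*, *Slc2a3* and *Slc2a4*, the hexokinase genes *Hk1* and *Hk2*, the phosphofructokinase (PFK) genes *Pfkl*, *Pfkm* and *Pfkp*, and the lactate dehydrogenase (LDH) genes *Ldha* and *Ldhb*. They were taken by symbol, and all 10 were found among the 21091 gene entries of the RNA-seq tables. Each averaged 1 FPKM or more over the 4 libraries, as did 12449 entries in all. FPKM counts fragments relative to transcript length and to the fragments mapped in the library, so levels of different genes can be set side by side. Progenitors were isolated from C57BL/6 embryonic brains at embryonic day 11 (E11) or 14 (E14) and grown for 3 days in suspension. The medium was serum-free and held EGF and FGF. Each stage had a control (CTL) and a *Stat3* cKO group, and each of these groups was 1 library. In *Stat3* cKO, Cre under a rat Nestin promoter and enhancer removes floxed exons of *Stat3* that encode its SH2 domain. The labels and the RNA-seq methods of the study call the control genotype wild-type. Its animal methods instead describe controls that carry Nestin-Cre and 1 floxed *Stat3* allele, and which of these the sequenced controls were could not be settled. How many embryos went into a library is not given in the sources used here. Groups without replicates allow neither a test nor an error on a value, and the plain ratios below describe these libraries.

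Glucose enters cells through transporters of the SLC2A (GLUT) family, and hexokinase traps it as glucose 6-phosphate. PFK catalyses the committed step of glycolysis, and LDH interconverts pyruvate and lactate. Each step is served by isoforms that differ in affinity, regulation and tissue. Proliferating and embryonic cells are known for *Slc2a1*, *Hk2* and *Ldha*, whereas mature brain is known for *Hk1* and *Ldhb*, and neurons for *Slc2a3*.

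*Stat3*, the deleted gene, had 7.41 FPKM (CTL) and 6.74 (*Stat3* cKO) at E11, and 27.6 and 9.55 at E14. The E11 genotypes thus differed little in the level of this gene, while at E14 the level in *Stat3* cKO was well below that in CTL. These values cover the whole gene, of which the deletion removes some exons, so they do not measure how much *Stat3* was deleted. The paper states that the knockout in progenitors is reached by E14. Y-linked *Ddx3y* was at 0 in both E11 libraries, at 0.0569 FPKM in E14 CTL and at 25.1 in E14 *Stat3* cKO. Sex thus cannot be told apart from genotype at E14, from stage in *Stat3* cKO, or from the difference between the genotype ratios of the stages. Fragment counts do not accompany the values. The smallest nonzero values gave a depth relative to E14 *Stat3* cKO of 0.934 for E14 CTL, and of 1.07 and 0.835 for CTL and *Stat3* cKO at E11. Radial glia markers were abundant, with the 6 genes summing to between 930 and 6845 FPKM, and the 7 neuron markers summed to between 688 and 938. Sums over 6 genes each were at most 4.84 FPKM for endothelial, 2.24 for microglial and 1.199 for skeletal muscle markers, with the microglial gene *Aif1* and the muscle gene *Ckm* at 0 in E14 CTL. The 4 erythroid markers with entries of their own summed to 24.6 FPKM in E11 CTL and 1.07 to 3.62 elsewhere. In bulk RNA, fewer cells of a type and less RNA per cell cannot be told apart. Over all genes the median log2 cKO/CTL ratio was 0.06 at E11 and -0.08 at E14, and that of E14 to E11 was 0.21 for CTL and 0.06 for *Stat3* cKO. Equalising the upper quartiles of the libraries would move each log2 ratio by -0.07, 0.15, -0.37 and -0.15 in the same order. Of 40 member ratios, 1 had a sign that depended on the scaling, that of *Pfkm* between genotypes at E14. Shares and ratios of isoforms within a library do not depend on it.

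The plot of levels by library shows the range of the 10 genes. *Ldha* was the highest in every library and *Slc2a4* the lowest. At E11, *Stat3* cKO was above CTL for 9 of the 10 genes, with a median log2 ratio of 0.36, and *Pfkp* was below. At E14, 5 genes were above and 5 below, with a median of 0.02. With upper-quartile scaling the split at E14 was 6 above and 4 below, and the median was 0.17. From E11 to E14 the median was -0.17 for CTL and -0.51 for *Stat3* cKO. Over all genes the medians between genotypes were 0.06 at E11 and -0.08 at E14. Between stages they were 0.21 for CTL and 0.06 for *Stat3* cKO. How many of all genes lay above or below was not counted. The counts above and below given here and for the lists further on therefore stand without that share.

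**Figure D1:**
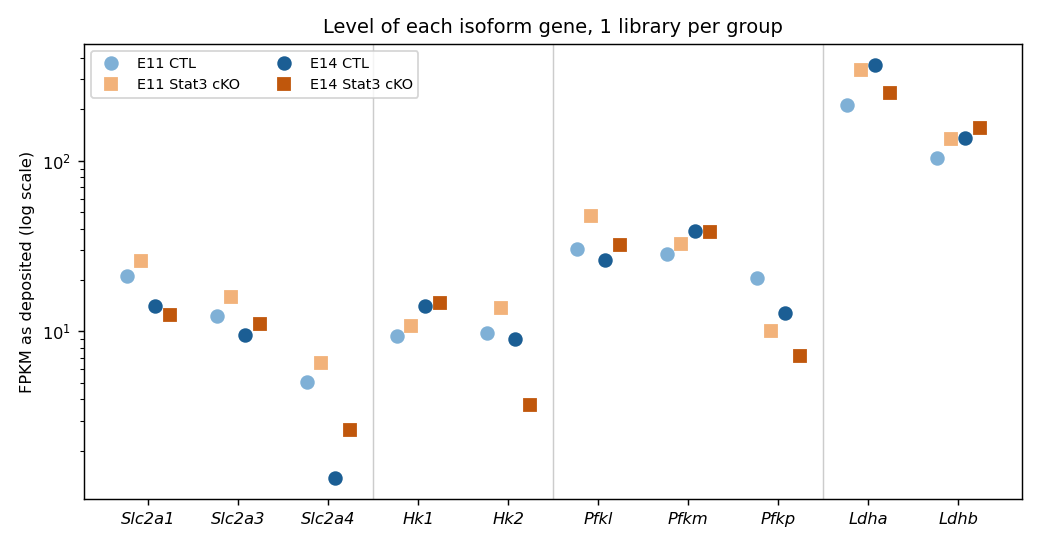
FPKM of the 10 isoform genes (log axis) in the 4 libraries, with 1 point for each library, circles for CTL and squares for *Stat3* cKO, and light colours for E11. *Slc2a4* spans the widest range, from 1.38 to 6.51 FPKM, and *Pfkm* the narrowest, from 28.4 to 38.7 FPKM.

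Few of the 10 genes reached a 2-fold difference. At E11, *Pfkp* was at least 2-fold lower in *Stat3* cKO, as were 1.12% of all genes, and no member was 2-fold higher, against 0.209% of all genes. With 1 FPKM added to each value, *Pfkp* was within 2-fold. At E14, *Hk2* was at least 2-fold lower, against 1.69% of all genes, and no member was 2-fold higher, against 1.85%. With median or upper-quartile scaling *Slc2a4* was past 2-fold higher there. From E11 to E14 in CTL, *Slc2a4* was at least 2-fold lower, against 12.5% of all genes, and no member was 2-fold higher, against 14.6%. With upper-quartile scaling *Pfkp* was also past 2-fold lower. In *Stat3* cKO, 3 members were at least 2-fold lower at E14 than at E11, *Slc2a1*, *Slc2a4* and *Hk2*, against 11.7% of all genes, and no member was 2-fold higher, against 10.1%. With 1 FPKM added to each value *Slc2a1* was within 2-fold, and 2 members were left. The genotype and stage comparisons share libraries, so they are not independent of each other.

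Among the transporters, *Slc2a1* and *Slc2a3* together made up most of the sum of the 3 genes in each library, and that sum was lower at E14 than at E11 in both genotypes. *Slc2a1* encodes GLUT1, the widely expressed basal transporter that also marks brain endothelium. It had 21.2 FPKM at E11 in CTL against 25.8 in *Stat3* cKO, and 14.0 against 12.5 at E14. Both E11 libraries were above both E14 libraries, by log2 ratios of E14 to E11 of -0.60 for CTL and -1.04 for *Stat3* cKO. The 6 endothelial markers summed to 4.58 and 4.84 FPKM at E11 and 1.14 and 1.69 at E14, and 1 of them averaged 1 FPKM or more. *Cldn5* went against these sums, at 0.511 and 0.567 FPKM at E11 and 0.551 and 1.036 at E14. Their part in the level of *Slc2a1* was not tested. Between genotypes *Slc2a1* differed little, with log2 ratios of 0.28 at E11 and -0.16 at E14.

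*Slc2a3* encodes GLUT3, a high-affinity transporter typical of neurons. It had 12.3 FPKM (CTL) and 15.9 (*Stat3* cKO) at E11, then 9.52 and 11.0 at E14. It was the steadiest of the 3 member transporters, with its highest level 1.67 times its lowest. Neuron markers summed to 688 FPKM (CTL) and 722 (*Stat3* cKO) at E11, and 938 and 816 at E14, with *Tubb3* at 463, 510.5, 569 and 517 of these. From E11 to E14 in CTL, 6 of the 7 were higher, and 4 with upper-quartile scaling. Between genotypes, 5 of the 7 were below CTL at E11 and 6 at E14 (5 with upper-quartile scaling). Their part in the level of *Slc2a3* was not tested. As a share of the 3 transporters, *Slc2a3* made up 31.9% and 33.0% in the E11 libraries and 38.2% and 42.0% in the E14 libraries, CTL before *Stat3* cKO. At E14 *Slc2a1* made up 56.3% in CTL against 47.9% in *Stat3* cKO, and thus the ratio of *Slc2a3* to *Slc2a1* was highest in E14 *Stat3* cKO, at 0.876, and lowest in E11 CTL, at 0.581.

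*Slc2a4* encodes GLUT4, the insulin-responsive transporter of muscle and fat. It had 5.06 FPKM (CTL) and 6.51 (*Stat3* cKO) at E11, and 1.38 and 2.65 at E14. The E11 libraries were well above the E14 libraries, and at each stage *Stat3* cKO was above CTL, by a log2 ratio of 0.36 at E11 and 0.95 at E14. Its share of the 3 transporters was 13.1% and 13.5% at E11, and 5.52% in E14 CTL against 10.1% in E14 *Stat3* cKO. The muscle markers stayed near 0, with sums of 1.199 and 0.813 FPKM at E11 and 0.553 and 0.744 at E14, and their part in its level was not tested. Another 9 genes of the family had entries, and the 3 transporters made up 58.7% to 67.8% of the sum of all 12. Of the 5 other transporter, hexokinase and LDH genes that averaged 1 FPKM or more, *Slc2a10* and *Slc2a12* were at least 2-fold lower at E14 than at E11 in both genotypes, against 12.5% of all genes in CTL and 11.7% in *Stat3* cKO. *Slc2a12*, a transporter close to GLUT4 in its regulation, had 3.19 FPKM at E11 in CTL against 5.82 in *Stat3* cKO, and 0.844 against 1.45 at E14. *Slc2a8* had the highest mean of the 5, between 4.504 and 7.12 FPKM, and in E14 CTL *Slc2a13* was above it, at 4.62 FPKM.

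**Figure D2:**
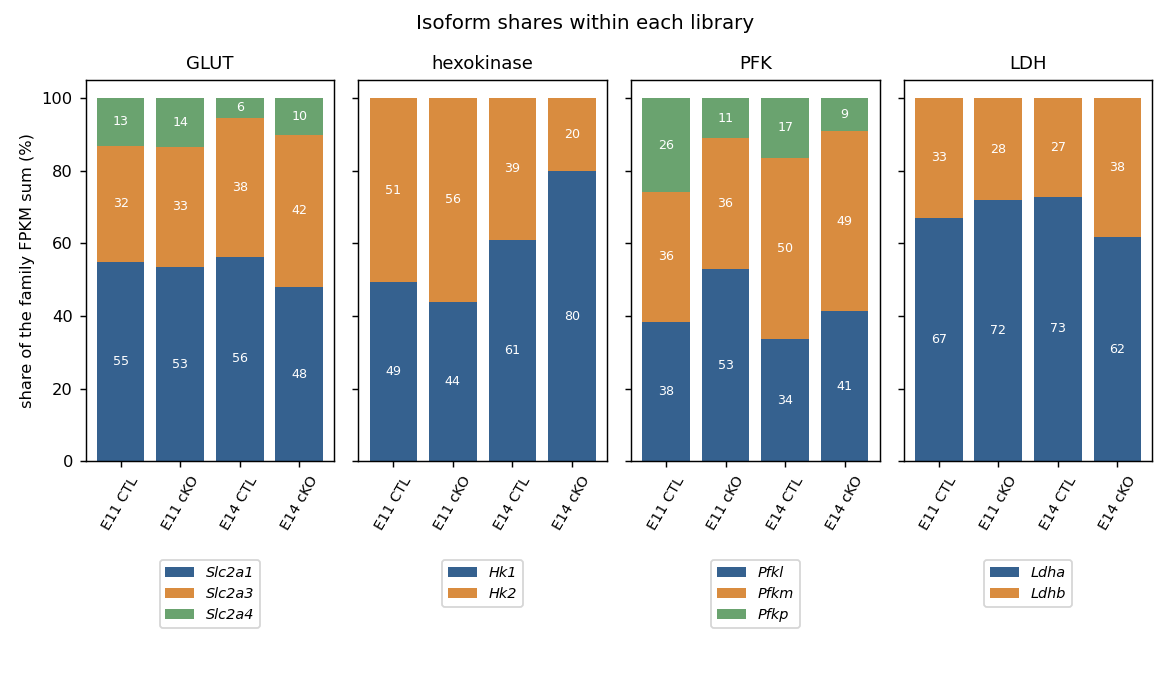
Share of each isoform in the FPKM sum of its family (%), in stacked bars for the 4 libraries, 1 panel for each family. The share of *Hk2* goes in *Stat3* cKO from 56.1% at E11 to 20.2% at E14, and that of *Pfkp* is below CTL in *Stat3* cKO at both stages.

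The hexokinases gave the largest difference in isoform share. *Hk1* is the isoform of most of the adult brain. It had 9.45 FPKM (CTL) and 10.7 (*Stat3* cKO) at E11, then 14.1 and 14.6 at E14. The E14 libraries were both above the E11 libraries, and the genotypes lay close together at each stage, with log2 ratios of 0.18 at E11 and 0.05 at E14. Of the 6 radial glia markers, 5 were higher at E14 in both genotypes, and *Pax6* was lower, at 44.2 and 48.6 FPKM at E11 against 14.6 and 18.998 at E14. Their sums were 930 and 1067 FPKM at E11 and 5904 and 6845 at E14, of which *Fabp7* alone made up 5245 and 5929 at E14. Their part in the level of *Hk1* was not tested.

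*Hk2*, the inducible isoform of growing and tumour cells, had 9.74 FPKM (CTL) and 13.7 (*Stat3* cKO) at E11, and 9.02 and 3.70 at E14. E14 *Stat3* cKO stood apart below the other 3 libraries. The log2 cKO/CTL ratio was 0.49 at E11 and -1.29 at E14, and that of E14 to E11 was -0.11 for CTL and -1.89 for *Stat3* cKO. At E14 astrocyte markers summed to 102 FPKM in CTL against 169 in *Stat3* cKO, of which *Aldh1l1* made up 78.6 and 136. The 5 that averaged 1 FPKM or more were above CTL there, and *Gfap* was lower, at 0.901 against 0.186 FPKM. At E11 the sums were 159 against 192, of which *Gja1* made up 138 and 174, and 3 of the 5 were below CTL. Their part in the level of *Hk2* was not tested.

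As a share of both hexokinases, *Hk2* made up 50.8% at E11 in CTL against 56.1% in *Stat3* cKO, and 39.1% against 20.2% at E14. The ratio of *Hk2* to *Hk1* was 1.03, 1.28, 0.641 and 0.253 in the same order. The isoforms were thus near parity at E11, *Hk1* led in E14 CTL, and it led by a wider margin in E14 *Stat3* cKO. The sum of both genes was 19.2, 24.4, 23.1 and 18.3 FPKM in the same order, so the isoform ratio varied more than the sum. From E11 to E14 in CTL the sum had a log2 ratio of 0.27, which was -0.10 with upper-quartile scaling. The other hexokinase genes were low, and *Hk1* and *Hk2* made up 94.6% to 98.1% of the sum of all 5.

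The promoter of *Hk2* is shown because *Hk2* and *Ldha* had the largest differences between the genotype ratios of the stages. RefSeq promoters (GRCm38.p6) were found for 8 of the 10 genes, in 13 windows, and those of *Slc2a3* and *Slc2a4* were not among them. The 250 bases before each start were searched on both strands for ACGTG, the core letters of the hypoxia response element, for CACGTG, the E-box bound by MYC and related factors, which contains that core, and for TTCNNNGAA, the STAT site. Capitals mark these letters. The *Hk2* window lies on the minus strand at chr6:82774455-82774704 and holds ACGTG at 2 places, which start 226 and 52 bases before the gene's start and read CACGT on the strand shown.
Hk2: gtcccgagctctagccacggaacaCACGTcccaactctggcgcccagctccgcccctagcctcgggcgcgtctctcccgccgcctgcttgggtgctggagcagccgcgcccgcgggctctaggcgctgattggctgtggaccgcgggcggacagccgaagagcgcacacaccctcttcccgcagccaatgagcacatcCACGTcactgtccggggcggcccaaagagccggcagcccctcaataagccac

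In PFK the leading isoform differed between the stages in both genotypes, though its lead in E11 CTL was small. *Pfkl* is named for liver, *Pfkm* for muscle and *Pfkp* for platelets, and brain expresses all of them as mixed tetramers. *Pfkl* had 30.6 FPKM (CTL) and 47.5 (*Stat3* cKO) at E11, then 26.1 and 32.0 at E14. It was above CTL in *Stat3* cKO at both stages, with log2 ratios of 0.64 and 0.29. *Pfkm* had 28.4 FPKM (CTL) and 32.4 (*Stat3* cKO) at E11, and 38.7 and 38.3 at E14, and it had the narrowest range of the 10 genes. Its log2 ratio between genotypes at E14 was -0.02, and 0.14 with upper-quartile scaling. *Pfkl* thus led in both E11 libraries and *Pfkm* in both E14 libraries, and the ratio of *Pfkl* to *Pfkm* was 1.08 and 1.47 at E11, and 0.675 and 0.835 at E14, in CTL and *Stat3* cKO.

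*Pfkp* was the member lower in *Stat3* cKO at both stages by at least 1.5-fold, as were 0.676% of all genes, a limit set after its values were seen. It had 20.7 FPKM at E11 in CTL against 10.04 in *Stat3* cKO, and 12.8 against 7.16 at E14. Both *Stat3* cKO libraries were below both CTL libraries, with log2 ratios of -1.04 at E11 and -0.84 at E14. Its share of PFK was 26.0% (CTL) and 11.2% (*Stat3* cKO) at E11, then 16.5% and 9.24% at E14. The sum of the 3 genes stayed between 77.5 and 89.97 FPKM. At E11 the share of *Pfkl* was 38.4% in CTL against 52.8% in *Stat3* cKO, and that of *Pfkm* stayed at 35.6% against 36.03%. *Pfkp* shares 748 of its 13401 annotated exon bases with *Pitrm1* on the other strand (GENCODE M21), and whether reads were counted by strand is not given in the sources used here. *Pitrm1* was above CTL in *Stat3* cKO at E11, at 26.1 and 29.95 FPKM, and had 34.8 and 33.95 FPKM at E14. *Pfkm* shares 341 of 3340 exon bases with *Gm26513* on the same strand.

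LDH was by far the most abundant of the families, and the balance of its isoforms differed between genotypes in opposite directions at the stages. *Ldha* encodes the subunit that favours the reduction of pyruvate to lactate. It had 212 FPKM (CTL) and 340 (*Stat3* cKO) at E11, and 366 and 251 at E14. *Stat3* cKO was above CTL at E11, by a log2 ratio of 0.68, and below it at E14, by -0.54. From E11 to E14 the log2 ratio was 0.79 for CTL and -0.44 for *Stat3* cKO, and these signs held with median and with upper-quartile scaling. *Ldhb* encodes the subunit that favours the oxidation of lactate. It had 104 FPKM at E11 in CTL against 134 in *Stat3* cKO, and 137 against 156 at E14, and was above CTL in *Stat3* cKO at both stages, with log2 ratios of 0.36 and 0.19.

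The share of *Ldhb* in LDH was 33.0% (CTL) and 28.2% (*Stat3* cKO) at E11, then 27.2% and 38.3% at E14. *Ldha* was thus the larger part in every library, and *Ldhb* came closest to it in E14 *Stat3* cKO, with a ratio of *Ldhb* to *Ldha* of 0.620 against 0.373 in E14 CTL. At E11 the order was the other way, at 0.393 in *Stat3* cKO and 0.493 in CTL. *Ldha* has 12 near copies among GENCODE M21 genes, counted as transcripts that match it at 90% identity or more over at least 200 bases. Of these, 1 had an entry in the tables, at no more than 0.317 FPKM, and how the workflow shared reads among such copies is not given in the sources used here. *Ldhb* has 1 such copy, without an entry. *Pfkp* also has 1, with an entry at up to 34.8 FPKM, which is the highest value of *Pitrm1* too. *Ldha* and *Ldhb* matched each other at 74.1% identity over 892 bases, below that limit, as did the closest pairs of the other families.

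The promoters of *Ldha* and *Ldhb* are shown together because the isoforms differed in their genotype ratio at E14. *Ldha* has 2 RefSeq starts. The bases after the first were not found in a GENCODE M21 transcript of *Ldha*, and those after the other, which lies downstream, were. The window of the first start (plus strand, chr7:46845554-46845803) holds ACGTG at 3 places, which start 145, 48 and 34 bases before the start. Those at 145 and 48 are also the E-box CACGTG, and that at 34 reads CACGT on the strand shown. The 250 bases before the downstream start hold no match. The *Ldhb* window (minus strand, chr6:142507958-142508207) holds no match to the 3 motifs.
Ldha, first start: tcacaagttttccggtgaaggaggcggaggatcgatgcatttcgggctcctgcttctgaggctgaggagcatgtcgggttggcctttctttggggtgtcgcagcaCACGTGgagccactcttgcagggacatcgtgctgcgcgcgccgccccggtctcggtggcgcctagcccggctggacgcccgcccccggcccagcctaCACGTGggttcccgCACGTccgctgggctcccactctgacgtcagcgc
Ldhb: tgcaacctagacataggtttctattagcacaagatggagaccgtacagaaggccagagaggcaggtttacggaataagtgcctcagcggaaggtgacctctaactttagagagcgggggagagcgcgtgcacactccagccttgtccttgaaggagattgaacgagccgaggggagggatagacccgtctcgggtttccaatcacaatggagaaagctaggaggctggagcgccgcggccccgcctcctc

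ACGTG was found in 5 of the 13 member windows, against 16.6% of all 32851 RefSeq windows. These belonged to 4 of the 8 genes, *Slc2a1*, *Hk2*, *Pfkm* and *Ldha*, and to 3 genes without the first *Ldha* start. A STAT site was found in 1 of the 13, a window of *Pfkm*, against 7.02% of all windows, and CACGTG in 2 of the 13, the first *Ldha* start and a window of *Pfkm*, against 6.02%. In *Slc2a1* ACGTG starts 36 bases before the gene's start. Any relation of these letters to the genotype ratios was not tested. A match of letters is a description of the sequence and not a bound site.

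The difference in genotype ratio between the stages was set against all genes. For *Hk2* the log2 cKO/CTL ratio at E14 minus that at E11 was -1.78, and 53 of 12419 genes had a lower value. For *Ldha* it was -1.23, and 206 genes had a lower value. These 2 members were lower by at least 1 on this scale, against 3.41% of all genes, and no member was higher by 1, against 3.17%. The other 8 lay between -0.45 for *Slc2a1* and 0.58 for *Slc2a4*, and the median of all genes was -0.12.

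**Figure D3:**
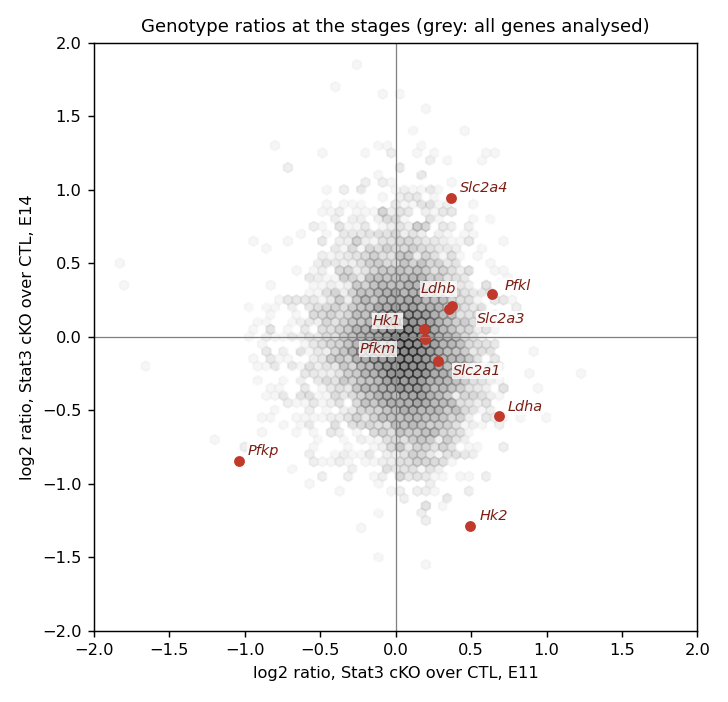
Log2 cKO/CTL ratio at E11 (horizontal) and at E14 (vertical) for the 10 members (red points) over all genes analysed (grey, darker where more genes fall), with 71 of 12419 genes outside the axes. *Hk2* and *Ldha* lie to the right of 0 and below 0, *Pfkp* to the left of 0 and below 0, and *Slc2a4* at the top.

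The rest of the pathway was read from lists chosen with earlier results of these data known. Of 12 other glycolytic enzymes averaging 1 FPKM or more, none was past 2-fold between genotypes, against 0.209% of all genes higher and 1.12% lower at E11, and 1.85% and 1.69% at E14. At E11, 10 of the 12 were above CTL in *Stat3* cKO, and the median log2 ratio was 0.34. At E14, 9 of the 12 were below CTL, with a median of -0.07, whereas with upper-quartile scaling 4 were below and the median was 0.08. *Eno1*, an enolase, had its libraries in the same order as those of *Ldha*, with 83.4 FPKM (CTL) and 161 (*Stat3* cKO) at E11, and 191 and 147 at E14. *Pkm*, the pyruvate kinase gene and the most abundant of the list, had 493, 623, 740 and 654 FPKM in the same order. *Aldoc*, the brain form of aldolase, had the widest stage difference of these enzymes, with 2.69 and 2.93 FPKM at E11 and 193 and 235 at E14 in CTL and *Stat3* cKO, and it differed little between genotypes. By stage, 2 of the 12 were past 2-fold higher in CTL, *Eno1* and *Aldoc*, and in *Stat3* cKO 1 was, *Aldoc*, against 14.6% and 10.1% of all genes. With upper-quartile scaling *Eno1* was within 2-fold, and *Eno2* was past 2-fold lower in CTL. *Eno3*, the muscle enolase, was past 2-fold lower in both genotypes, from 6.51 to 2.02 FPKM in CTL and from 6.30 to 2.43 in *Stat3* cKO, against 12.5% and 11.7% of all genes.

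Past LDH, lactate and pyruvate are moved by the MCT transporters and the mitochondrial pyruvate carrier. *Slc16a1* encodes MCT1, a lactate transporter of many tissues, and had 18.6 FPKM at E11 in CTL against 25.8 in *Stat3* cKO, and 42.1 against 21.9 at E14. Like *Ldha* it was above CTL at E11 and below CTL at E14 in *Stat3* cKO, with log2 ratios of 0.47 and -0.94. *Slc16a3* encodes MCT4, the lactate exporter of glycolytic cells, and had 9.56, 13.7, 0.796 and 1.92 FPKM in the same order. It was far higher at E11 than at E14, and at each stage higher in *Stat3* cKO. Of the 16 genes of this list, 6 exceeded their E11 level at least 2-fold at E14 in CTL and 2 were 2-fold below it, against 14.6% and 12.5% of all genes. In *Stat3* cKO these counts were 4 and 1, against 10.1% and 11.7%. With upper-quartile scaling 3 were 2-fold higher and 3 lower in CTL, and 3 and 1 in *Stat3* cKO. Among those higher with either scaling, *Mpc1*, a subunit of the mitochondrial pyruvate carrier, went from 30.7 to 167 FPKM in CTL and from 31.2 to 153 in *Stat3* cKO. *Pcx*, pyruvate carboxylase, went from 6.35 to 41.4 and from 8.998 to 57.0 FPKM, and *Slc16a7*, which encodes MCT2, from 0.835 to 2.63 and from 0.734 to 2.08. *Slc16a1*, *Mpc2* and *Dlat*, a subunit of pyruvate dehydrogenase, were past 2-fold higher in CTL as deposited only, as was *Mpc2* in *Stat3* cKO. The genes past 2-fold lower as deposited were *Slc16a3* in both genotypes and *Pdk2*, a pyruvate dehydrogenase kinase, in CTL. *Pdha1*, of pyruvate dehydrogenase, had the highest mean of the list, between 77.8 and 148 FPKM. Between genotypes at E11, 11 of the 16 were above and 5 below CTL, and 10 were above with upper-quartile scaling. At E14, 4 of the 16 were above and 12 below CTL, and 9 were above with upper-quartile scaling. *Slc16a3* was past 2-fold higher in *Stat3* cKO at E14, against 1.85% of all genes, and with upper-quartile scaling *Pdk2* was as well.

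**Figure D4:**
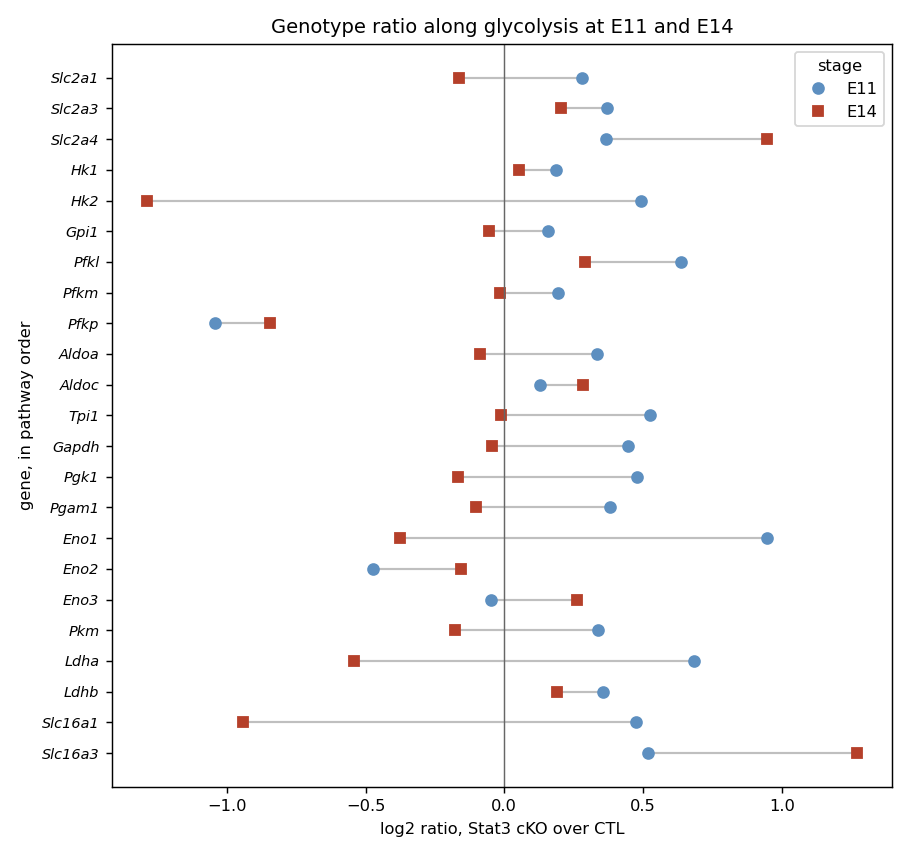
Log2 cKO/CTL ratio at E11 (blue circles) and E14 (red squares) for transporters, glycolytic enzymes and lactate transporters in pathway order, with a grey line joining the stages of a gene. Most genes lie right of 0 at E11 and near 0 at E14, and *Hk2*, *Eno1*, *Ldha* and *Slc16a1* have the longest lines that cross 0.

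In the branches that leave glycolysis at hexose phosphates, 9 of 9 genes were above CTL in *Stat3* cKO at E11 (7 with upper-quartile scaling), with a median log2 ratio of 0.16. At E14, 7 of the 9 were below CTL, with a median of -0.06, whereas with upper-quartile scaling 7 were above and the median was 0.09. *Gfpt2*, which feeds the hexosamine pathway from fructose 6-phosphate, was the 1 gene of the 9 past 2-fold between genotypes, lower at E14 as were 1.69% of all genes, with 5.86 FPKM (CTL) and 7.58 (*Stat3* cKO) at E11, then 5.90 and 1.87 at E14. *Pgls* was the highest of them, between 88.2 and 175 FPKM, and its genotypes lay close together. By stage, *Ugp2*, of glycogen synthesis, was past 2-fold higher in CTL, from 22.5 to 45.3 FPKM, against 14.6% of all genes. With upper-quartile scaling it was within 2-fold. *Gfpt2* was past 2-fold lower in *Stat3* cKO, against 11.7% of all genes, and with upper-quartile scaling *Gfpt1* was as well. Of the 4 genes for the bifunctional PFK-2 enzymes and TIGAR that passed the minimum, which set or remove the PFK activator fructose 2,6-bisphosphate, none differed 2-fold between genotypes. Of all genes, 0.209% were 2-fold higher and 1.12% lower at E11, and 1.85% and 1.69% at E14. *Pfkfb3* was at least 2-fold lower at E14 than at E11 in both genotypes, from 6.72 to 3.32 FPKM in CTL and from 6.77 to 2.61 in *Stat3* cKO, against 12.5% and 11.7% of all genes. The gene for TIGAR, listed as *9630033F20Rik*, was past 2-fold higher at E14 in CTL, from 3.38 to 6.82 FPKM, against 14.6% of all genes, and was within 2-fold with upper-quartile scaling. It had 3.73 and 3.71 FPKM in *Stat3* cKO. *Pfkfb2*, the highest, stayed between 7.57 and 8.75 FPKM.

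Of 14 regulators of glucose use, *Txnip* was the 1 gene past 2-fold between genotypes, higher at E14 as were 1.85% of all genes. It encodes a protein that restrains glucose uptake through GLUT1, and its transcript is induced by glucose. It had 226 FPKM (CTL) and 126 (*Stat3* cKO) at E11, and 25.1 and 55.2 at E14. Its genotype ratios ran opposite to those of *Hk2* and *Ldha*, with a log2 ratio of -0.84 at E11 and 1.14 at E14. *Arrdc4*, its glucose-induced relative, had 48.6, 33.7, 18.0 and 23.9 FPKM in the same order, with log2 ratios of -0.53 and 0.41. By stage, 2 of the 14 were past 2-fold higher and 3 lower in each genotype, and 2 and 4 with upper-quartile scaling, against 14.6% and 12.5% of all genes in CTL and 10.1% and 11.7% in *Stat3* cKO. *Myc*, whose product binds the E-box, went from 1.37 to 5.85 FPKM in CTL and from 0.990 to 3.35 in *Stat3* cKO. *Mef2c*, a muscle and neuron transcription factor, went from 2.73 to 20.9 and from 2.19 to 16.5 FPKM. *Arnt*, which encodes the partner of the hypoxia-inducible factors, was lower at E14, at 6.77 against 2.78 FPKM in CTL and 8.60 against 2.96 in *Stat3* cKO. *Txnip* was lower at E14 in both genotypes, *Arrdc4* in CTL, and *Trp53*, which encodes p53, in *Stat3* cKO, from 14.9 to 5.89 FPKM. *Hif1a*, which encodes the oxygen-regulated partner of ARNT, was not past 2-fold and stayed between 69.3 and 75.2 FPKM. The list as a whole had medians of 0.03 at E11 and -0.07 at E14, which were -0.04 and 0.08 with upper-quartile scaling.

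The genes most like the widest-ranging member of each family were sought by the Euclidean distance between log2 profiles centred over the 4 libraries, among 9184 or 9185 genes averaging 5 FPKM or more. Each profile has 4 points, and the distances are a description. For *Hk2* the nearest was *Gfpt2*, at 0.27, followed by *Gar1* and *Ccnd2*, at 0.29 each. *Ccnd2*, cyclin D2, had 84.2 FPKM at E11 in CTL against 100.1 in *Stat3* cKO, and 65.2 against 33.5 at E14. For *Ldha* the nearest were *Clspn*, *Msh3* and *Tmem176a*, at 0.06, 0.06 and 0.07. For *Pfkp* they were *Xpot* and *Eprs*, at 0.33 each, and *Snhg12*, at 0.35. For *Slc2a4* they were *Plin3*, *Nynrin* and *Dap*, at 0.18, 0.26 and 0.27. The distance scales with the range of a profile, and so is not comparable between members.

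Positions are given as the tables list them, and the submitters' processing notes name the mouse builds mm8 and mm9 without saying which the positions use. *Slc2a1* is listed on chromosome 4 from 118781349 to 118809934, *Hk2* on chromosome 6 from 82675020 to 82724448, *Pfkp* on chromosome 13 from 6547402 to 6647970 and *Ldha* on chromosome 7 from 54101173 to 54110997. *Slc2a3* and *Ldhb* lie on chromosome 6 with *Hk2*, *Hk1* and *Pfkl* on chromosome 10, *Slc2a4* on chromosome 11 and *Pfkm* on chromosome 15, so none of the 10 is on a sex chromosome. The FPKM values cover whole genes, exons and UTRs together, and resolve no transcript forms of a gene.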

How the data were processed

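Total RNA of 4 libraries was sequenced by the authors on an Illumina HiSeq, checked with FastQC and processed with TopHat and Cufflinks, and they deposited FPKM values, 1 per gene entry and library. The submitters' processing notes name Bowtie 0.12.2 and the builds mm8 and mm9. The annotation and any scaling between libraries are not given in the sources used here. Values were used as deposited, without a pseudocount. Genes averaging 1 FPKM or more were compared by plain ratios, a ratio with a 0 on either side was not formed, and 2-fold was the limit for a call. Symbols listed more than once were left out of single-gene results. A share is the FPKM of a member over the sum of its family in 1 library. The members and lists were chosen with earlier results of these data known. Named besides the members and *Stat3* were list genes past 2-fold in a comparison, the highest gene of each list, and the 3 nearest profiles. *Ddx3y*, *Slc2a13*, *Eno2*, *Gfpt1*, *Aif1*, *Ckm*, the named glial, neuron and endothelial markers, *Pitrm1*, *Gm26513* and *Hif1a* were named after their values were seen. Promoters are RefSeq windows, and 11 of 13 read forward into a GENCODE M21 transcript of their gene. Near copies were sought with blastn. The code for calls, shares and nearest profiles was run on copies of the E11 CTL library with known 3-fold changes put in. Those copies hold no other difference between libraries, and the scaling and sequence steps were not part of that run. Python 3.11.15, numpy 2.4.6, pandas 2.3.3, scipy 1.17.1 and matplotlib 3.10.9 were used. Alternatives were a pseudocount of 1 FPKM, median and upper-quartile scaling, a minimum of 5 FPKM or none, limits of 1.5-fold and 3-fold, and wider families.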

Additional observations from a re-analysis of the deposited data

Results flagged for a closer look

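In 4 members the ratio of *Stat3* cKO to CTL had opposite signs at E11 and E14. The log2 ratio at E14 minus that at E11 was -1.78 for *Hk2*, -1.23 for *Ldha*, -0.45 for *Slc2a1* and -0.21 for *Pfkm*. With 1 library per group the difference was not tested, and for *Pfkm* the sign at E14 depends on the scaling between libraries. For *Slc2a1* the log2 ratio at E14 was -0.16 as deposited and -0.01 with upper-quartile scaling. How many of all genes had opposite signs at the stages was not counted.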

How the results depend on the processing

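With no replicates, a share was taken as moved past 5 percentage points, a log2 value past 1.5-fold and a count past 1.5 times. With every family gene in the sum, the share of *Slc2a1* was 36.5% (CTL) and 36.3% (*Stat3* cKO) at E11, and 35.2% and 28.1% at E14, and that of *Slc2a3* was 21.2% and 22.4% at E11, and 23.9% and 24.6% at E14. A pseudocount of 1 FPKM gave a log2 ratio of *Slc2a4* to *Slc2a1* of -2.66 in E14 CTL, against -3.35 without it, and 0 members past 2-fold lower at E11 in *Stat3* cKO. At E14, 1 member was past 2-fold higher in *Stat3* cKO with median or with upper-quartile scaling. From E11 to E14 in CTL, 2 members were past 2-fold lower with upper-quartile scaling and 0 with a minimum of 5 FPKM, which removes *Slc2a4*. With a limit of 1.5-fold, 2 members were higher in *Stat3* cKO at E11 (2.18% of all genes), 1 higher and 2 lower at E14 (5.82% and 7.67%), and by stage in CTL 1 higher and 3 lower (30.3% and 18.9%). With a limit of 3-fold, 0 were lower in *Stat3* cKO at E11 and at E14 (0.402% and 0.418% of all genes), and 1 was lower at E14 than at E11 in *Stat3* cKO (6.92%). Without a filter, the other family genes lay lower at E14 in *Stat3* cKO, by a median of -0.89 (log2), against -0.10 with it. The differences between genotype ratios of the stages moved by less than 1.5-fold under the 3 alternatives run for them. No paired analysis was possible because each group has 1 library. The fragments behind low values such as those of *Slc2a4* are unknown.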
